A study of Mus musculus with 9 samples.

Results

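The interleukin 6 (IL-6) family was followed through 10 genes in mouse bladder: the ligands Il6, Il11, Lif and Osm, the receptor chains Il6ra, Il11ra1, Osmr and Il6st, the transcription factor Stat3 and its feedback inhibitor Socs3. The members are the rows of the deposited table whose gene symbol equals one of these names, 10 of 53342 genes. RNA was measured in 3 libraries each of H2O2/SB431542-treated, H2O2/saline-treated and control bladders, all from wild-type female C57BL/6N mice. The H2O2/SB431542 and H2O2/saline mice received 1.5% H2O2 into the bladder at 8 weeks of age, which injures the lining and serves as a model of cystitis. They were then injected into the abdomen with 100 μL of 1.2 mM SB431542, a small-molecule inhibitor of the type I receptors of TGF-β, or of saline, on days 0 and 4, and the bladder was removed on day 10. Control mice had saline infused into the bladder according to the study's methods and are called sham in its text, whereas the labels give them as untreated. RNA came from a hemisphere of the bladder according to the study's methods, whereas the labels name the total bladder. It is not stated that libraries 1 to 3 of a group came from separate mice, so the p-values measure the spread between these libraries, which may be technical.

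IL-6 family cytokines signal through gp130, the shared receptor chain encoded by Il6st. A ligand first binds its own chain (IL-6 binds the product of Il6ra, interleukin 11 that of Il11ra1), or, for leukemia inhibitory factor (Lif) and oncostatin M (Osm), gp130 pairs with the product of Lifr or Osmr. Receptor-bound JAK kinases then phosphorylate STAT3, which enters the nucleus and switches on target genes, among them Socs3, whose protein binds gp130 and JAK and shuts the signal down. In inflamed tissue the pathway is known for the acute-phase response, epithelial repair and the recruitment of leukocytes.

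The windows of 250 bases before the start sites are shown for the 4 members in which 1 of the 2 motifs searched was found, since Socs3 and Lif were the members whose values stood furthest from control for their error. Sequences come from RefSeq on GRCm38.p6, and 9 of the 10 members matched an entry. Capitals mark the palindromic STAT motif TTCNNNGAA in Socs3 and the AP-1 motif TGANTCA in the others, each searched on both strands.
Socs3 (chr11:117969367-117969616, minus strand): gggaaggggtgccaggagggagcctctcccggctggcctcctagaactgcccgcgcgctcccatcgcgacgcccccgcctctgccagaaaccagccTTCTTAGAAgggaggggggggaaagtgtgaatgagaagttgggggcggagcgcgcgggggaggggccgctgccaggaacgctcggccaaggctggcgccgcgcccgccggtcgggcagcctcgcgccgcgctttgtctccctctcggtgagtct
Lif (chr11:4257318-4257567, plus strand): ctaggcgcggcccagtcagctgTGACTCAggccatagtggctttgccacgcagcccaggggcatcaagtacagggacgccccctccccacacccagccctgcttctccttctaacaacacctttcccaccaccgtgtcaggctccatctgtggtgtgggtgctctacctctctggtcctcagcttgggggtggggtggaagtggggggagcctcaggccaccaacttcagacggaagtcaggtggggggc
Il11 (chr7:4778142-4778391, minus strand): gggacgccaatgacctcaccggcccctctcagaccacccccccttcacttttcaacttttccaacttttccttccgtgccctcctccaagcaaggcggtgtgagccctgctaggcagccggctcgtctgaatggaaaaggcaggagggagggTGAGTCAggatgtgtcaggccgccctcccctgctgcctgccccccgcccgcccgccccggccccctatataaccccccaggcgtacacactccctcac
Il6 (chr5:30012864-30013113, plus strand): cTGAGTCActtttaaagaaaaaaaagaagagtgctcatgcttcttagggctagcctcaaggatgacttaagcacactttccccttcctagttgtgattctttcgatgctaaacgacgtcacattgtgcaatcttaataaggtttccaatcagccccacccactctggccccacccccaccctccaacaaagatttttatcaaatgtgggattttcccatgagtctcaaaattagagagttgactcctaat
The STAT motif lay 154 bases before the start of Socs3 and was in no other member's window, and 7.01% of the 32817 mouse windows of this length hold it. The AP-1 motif lay 228 bases before the start of Lif, 98 before Il11 and 249 before Il6, and 6.75% of windows hold it. The other Il11 window searched, at chr7:4782858-4783107, held neither motif. A match is a run of letters and was not tested as a binding site.

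Total counts ran from 37329213 to 41055328 per library, so that 3 counts correspond to 0.0686 to 0.0867 CPM (counts scaled to the library's total times its TMM factor). Of the 53342 genes, 19314 passed the filter on low counts and were tested with edgeR's quasi-likelihood test, and p-values were adjusted by Benjamini-Hochberg over all of them. The library H2O2/saline 1 stood apart from H2O2/saline 2 and 3. Its summed CPM of 8 neutrophil markers was 2.69, against 17.5 and 15.7 in the other two, and lay in the control range of 1.01 to 2.75. Its mast cell marker sum of 18.1 CPM also lay in the control range, of 13.3 to 24.5. Other sums did not place it with control. Its macrophage and monocyte sum of 377 CPM was above the control range of 228 to 281, and its T cell sum of 6.65 CPM above that of 1.93 to 3.54. The counts of genes past an adjusted p of 0.05 were 10 for H2O2/saline against control, 0 for H2O2/SB431542 against H2O2/saline and 3 for H2O2/SB431542 against control. Without H2O2/saline 1 they were 1822, 197 and 83, so results are given with and without it. The labels hold nothing that sets this library apart. In the number of genes with a count it was not alone. Replicate 1 of H2O2/SB431542, H2O2/saline and control had 27530, 26550 and 25838 such genes, against 21451 to 24078 in the rest.

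In the edgeR fit of all 9 libraries with no block, 0 of the 9 tested members passed the adjusted threshold in any comparison, where 0.0518% of all tested genes did for H2O2/saline against control, 0% for H2O2/SB431542 against H2O2/saline and 0.0155% for H2O2/SB431542 against control. For H2O2/saline against control, Socs3 and Lif had the largest fold changes relative to their error. Every H2O2/saline library was above every control library for both. The difference passed the threshold with the replicate number as a block, with DESeq2's Wald test and without H2O2/saline 1. It did not pass with DESeq2 size factors, limma-voom, only the 2 groups compared, or any other single library left out. H2O2/saline 1 was set apart on these same data, so the fit without it is not independent support. Socs3 in H2O2/SB431542 bladders stood between the levels of H2O2/saline 2 and 3 and those of control. The receptor chains differed less. Before adjustment, 4 members were higher and 0 lower in H2O2/saline than in control at p under 0.05, against 9.88% higher and 7.96% lower among all tested genes. For H2O2/SB431542 against H2O2/saline 1 member was higher and 1 lower, where 3.86% of genes were higher and 4.98% lower. For H2O2/SB431542 against control 3 were higher and 1 lower, where 4.36% of genes were higher and 3.24% lower. The groups did not overlap for 5 members that were higher in H2O2/saline than in control (9.7% of all tested genes), and for 5 that were higher and 1 that was lower in H2O2/SB431542 than in control (7.98% and 6.49%). The median log2 fold change of the 9 members was 0.63, −0.12 and 0.60 in these comparisons, and that of all tested genes was −0.02, 0.02 and 0.00. The counts of members higher than control include Osm, which passed the filter on low counts through H2O2 libraries only.

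**Figure D1:**
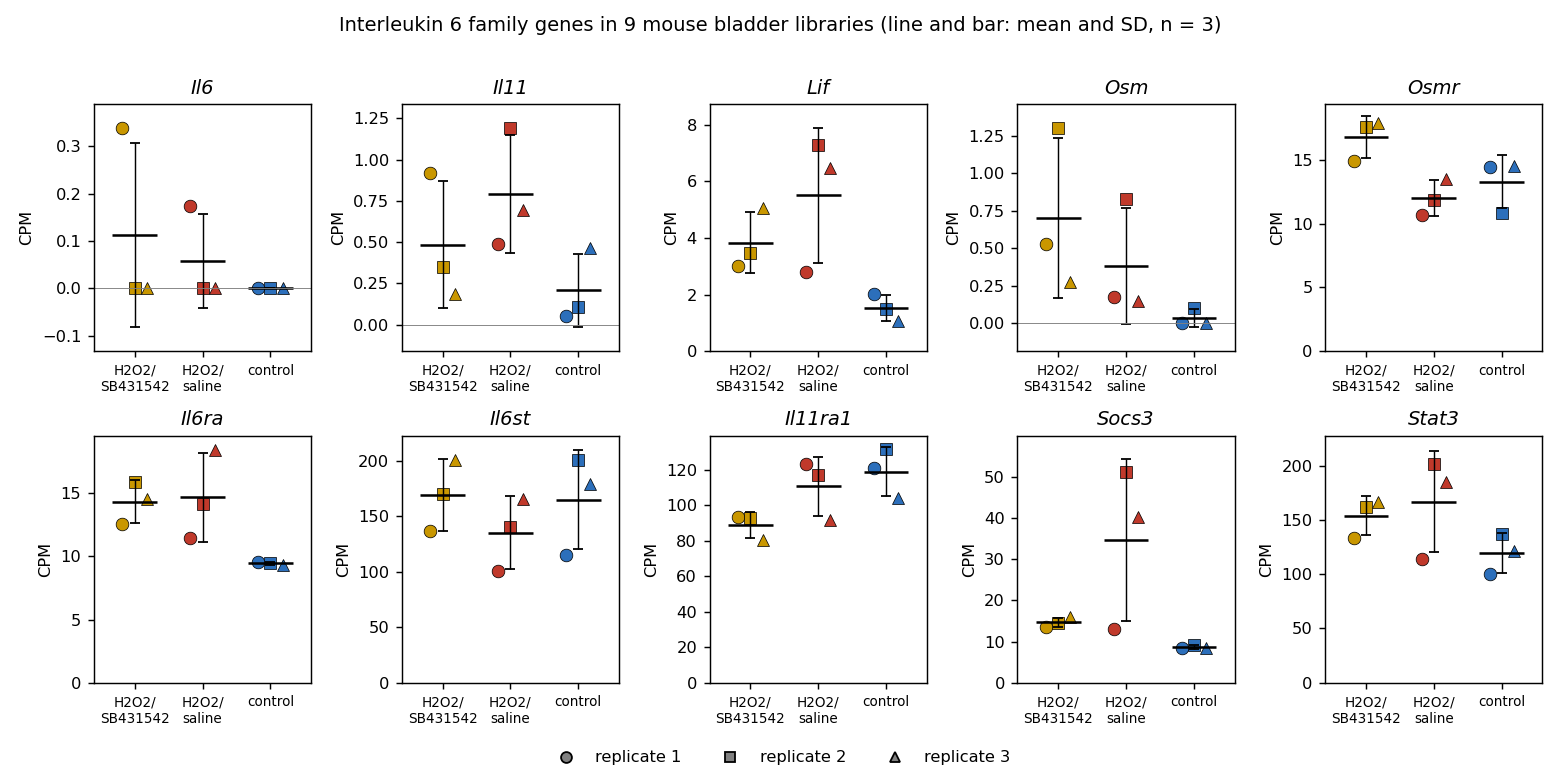
CPM (linear axis, 1 scale per gene) of the 10 members in H2O2/SB431542, H2O2/saline and control libraries. Circles, squares and triangles are replicates 1, 2 and 3, and the line and bar are the mean and SD (n = 3). Socs3 reached 51.1 and 40.2 CPM in H2O2/saline 2 and 3 and stayed under 16 CPM in every other library.

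The genes of the ligands were the least abundant members. Il6 had 14, 0 and 0 counts in the H2O2/SB431542 libraries, 6, 0 and 0 in the H2O2/saline libraries and 0, 0 and 0 in the control libraries. Every Il6 count was therefore in a replicate 1 library, and the gene did not pass the filter on low counts. A count of 0 allows up to 3 counts, which is at most 0.0793 CPM in a control library, and no fold change is given.

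Lif, which acts on the Lifr–gp130 pair, had 2.99, 3.45 and 5.05 CPM in H2O2/SB431542 bladders, 2.80, 7.27 and 6.46 CPM in H2O2/saline bladders and 2.01, 1.48 and 1.08 CPM in control bladders. All libraries of both H2O2 groups were above all controls, and H2O2/saline 1 was the lowest of the 6. Lif was higher in H2O2/saline than in control by 1.85 on the log2 scale (SE 0.431, edgeR unadjusted p 0.00105, adjusted p 0.0679). With the replicate number as a block, a fit that called 4.79% of genes, the value was 1.77 (SE 0.436, adjusted p 0.0468). Without H2O2/saline 1, where 9.43% of genes were called, it was 2.12 (SE 0.388, adjusted p 0.00522). DESeq2's Wald test, which called 7.3% of genes in this comparison, gave 1.84 with an adjusted p of 0.00206. H2O2/SB431542 against control gave 1.33 (SE 0.426, edgeR adjusted p 0.414) and H2O2/SB431542 against H2O2/saline gave −0.52 (SE 0.414, edgeR adjusted p 0.750). Libraries of H2O2/SB431542 and H2O2/saline overlapped.

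Osm, a product mainly of leukocytes, had 22, 52 and 12 counts in H2O2/SB431542 bladders, 6, 32 and 6 counts in H2O2/saline bladders and 0, 4 and 0 counts in control bladders. Neither H2O2 group overlapped with control, but Osm passed the filter on low counts through H2O2 libraries only. Its higher level than in control was therefore partly set by that filter. The edgeR log2 fold change was 3.34 (SE 1.38, adjusted p 0.232) for H2O2/saline and 4.20 (SE 1.4, adjusted p 0.444) for H2O2/SB431542, both against control, and both values depend on the prior count because controls were close to 0. Over all alternatives the first ran from 2.10 to 6.92 and the second from 3.40 to 7.80. Replicate 2 had the most Osm counts in each group.

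Il11, known from fibroblasts and fibrosis, had 0.918, 0.350 and 0.183 CPM in H2O2/SB431542 bladders, 0.491, 1.19 and 0.694 CPM in H2O2/saline bladders and 0.0529, 0.106 and 0.464 CPM in control bladders. The 3 H2O2/saline libraries were above the highest control, the lowest of them by a small margin, and the H2O2/SB431542 libraries overlapped with both other groups. H2O2/saline against control gave a log2 fold change of 1.91 (SE 0.981, edgeR adjusted p 0.339).

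Sums of leukocyte markers are set beside these ligands. The summed CPM of 8 macrophage and monocyte markers was 281 to 521 in H2O2/SB431542, 377 to 691 in H2O2/saline and 228 to 281 in control bladders, and all 8 were tested and detected in each group. The 8 neutrophil markers, of which 5 were tested, summed to 2.49 to 11, 2.69 to 17.5 and 1.01 to 2.75 CPM in these groups, with Ngp and Ly6g at 0 in all control libraries and Mmp8 at 0 in all H2O2/saline libraries. The 6 T cell markers summed to 3.06 to 5.13, 5.90 to 10.3 and 1.93 to 3.54 CPM. Trbc2 alone made up 6.96 CPM of the highest sum, in H2O2/saline 3. In that library Cd4 and Cd3g were above all controls, whereas Cd3e at 0.446 CPM was below all of them. In H2O2/saline bladders the macrophage and monocyte sum, Osm, Lif and Il11 were all highest in replicate 2. In H2O2/SB431542 bladders this sum and Osm were highest in replicate 2, but Il11 in replicate 1 and Lif in replicate 3. The part of these cells in the ligand values was not tested. In RNA of whole tissue, fewer cells of a type and less RNA per cell cannot be told apart.

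The receptor chains were measured far more deeply than the ligands, and their group differences were small. Per kilobase of exon (lengths from GENCODE on GRCm38), the control mean was 47.5 ± 5.52 CPM for Il11ra1, 19.2 ± 2.98 for Stat3, 15.0 ± 4.04 for Il6st, 3.40 ± 0.169 for Socs3, 2.42 ± 0.381 for Osmr, 1.09 ± 0.0127 for Il6ra, 0.376 ± 0.115 for Lif, 0.0997 ± 0.108 for Il11 and 0.0155 ± 0.0268 for Osm (SD, n = 3). In this order of levels, Stat3 and Il6st overlapped, as did Il11 and Osm.

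Il6ra, the IL-6-binding chain, had 12.5, 15.9 and 14.6 CPM in H2O2/SB431542 bladders, 11.4, 14.2 and 18.4 CPM in H2O2/saline bladders and 9.55, 9.48 and 9.33 CPM in control bladders. All 6 H2O2 libraries were above the 3 controls, which lay within a narrow range, and the H2O2 groups overlapped each other. The log2 fold change was 0.63 (SE 0.226, edgeR adjusted p 0.172) for H2O2/saline against control and 0.60 (SE 0.226, edgeR adjusted p 0.541) for H2O2/SB431542 against control. Il6ra shares 242 exonic bases with Gm42809 on the opposite strand, and the sources used here do not say whether counting used strand, so reads of the pair may be mixed.

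Osmr, the oncostatin M receptor, had 14.9, 17.5 and 17.9 CPM in H2O2/SB431542 bladders, 10.7, 11.9 and 13.5 CPM in H2O2/saline bladders and 14.4, 10.9 and 14.5 CPM in control bladders. It was the single member whose H2O2/SB431542 and H2O2/saline groups did not overlap, where 15.9% of tested genes did not. The log2 fold change for this pair was 0.48 (SE 0.210, edgeR unadjusted p 0.0402, adjusted p 0.553), and it lay between 0.43 and 0.57 over all alternatives. H2O2/saline against control gave −0.15 (edgeR adjusted p 0.787).

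Il11ra1, the interleukin 11 receptor chain, had 93.2, 92.9 and 80.7 CPM in H2O2/SB431542 bladders, 123, 117 and 91.6 CPM in H2O2/saline bladders and 121, 132 and 104 CPM in control bladders. The H2O2/SB431542 libraries were below all controls, with a log2 fold change of −0.42 (SE 0.179, edgeR unadjusted p 0.0364, adjusted p 0.615). It overlapped between H2O2/SB431542 and H2O2/saline, where the value was −0.32 (SE 0.179, edgeR adjusted p 0.633). Counts of Il11ra1 are uncertain, because 46.3% of its runs of 50 transcript bases also occur in its copy Gm13305 and 15.8% in Il11ra2. Gm13305 had 51 to 87 counts per library and Il11ra2 had 0 in all 9.

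Il6st, the common gp130 chain, had 136, 170 and 200.2 CPM in H2O2/SB431542 bladders, 100.2, 139.8 and 165 CPM in H2O2/saline bladders and 115, 200.1 and 179 CPM in control bladders. The 3 groups overlapped, and the log2 fold changes were −0.29 (H2O2/saline against control), 0.32 (H2O2/SB431542 against H2O2/saline) and 0.04 (H2O2/SB431542 against control), with edgeR adjusted p-values of 0.616, 0.744 and 0.997. Replicate 1 was the lowest library of each group for Il6st and also for Stat3. The summed CPM of 8 urothelium markers was the highest in replicate 1 of each group, at 15976, 19615 and 22922, against 12629 and 14000, 11197 and 11479, and 14879 and 15762 in replicates 2 and 3. The median over these markers of log2 CPM relative to the control mean was highest in replicate 1 for control only. It was −0.40, −0.16 and −0.29 in H2O2/SB431542, −0.05, −0.21 and −0.02 in H2O2/saline and 0.24, −0.20 and −0.11 in control libraries. The part of tissue composition in the spread of Il6st was not tested.

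**Figure D2:**
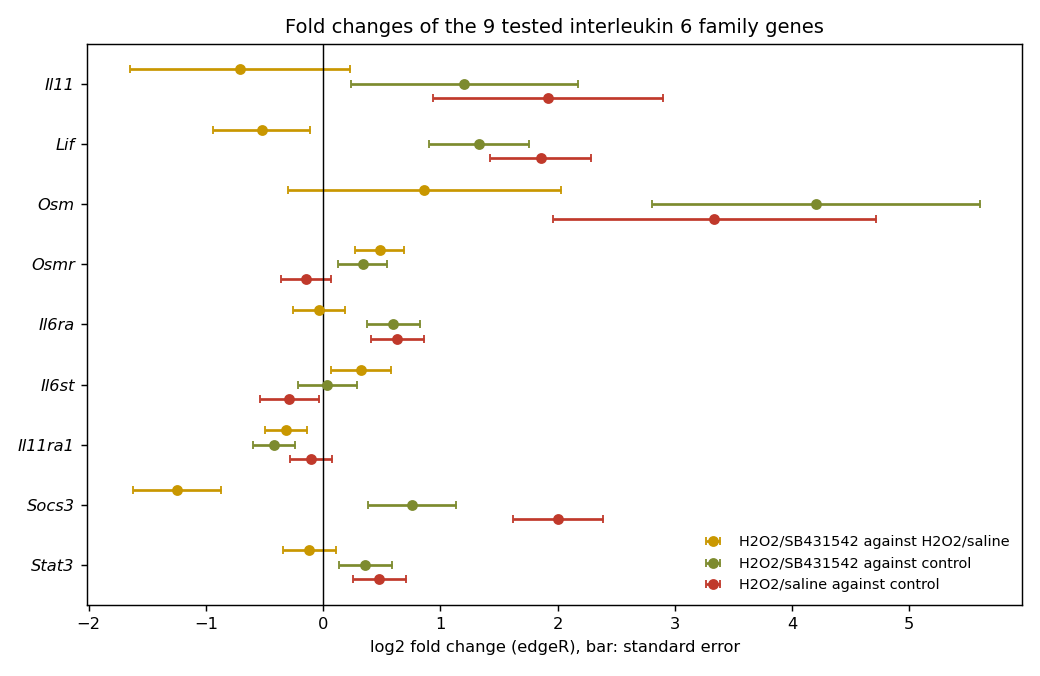
Log2 fold change (edgeR, horizontal axis) of the 9 tested members in 3 comparisons, with the standard error as bars. Socs3 lay at 2.0 for H2O2/saline against control and at −1.24 for H2O2/SB431542 against H2O2/saline, whereas Il6st lay within 0.32 of 0 in each comparison.

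Stat3, the transcription factor of the pathway, had 133, 162 and 166 CPM in H2O2/SB431542 bladders, 114, 202 and 185 CPM in H2O2/saline bladders and 100.5, 138 and 121 CPM in control bladders. Groups overlapped, and the log2 fold change was 0.48 (SE 0.228, edgeR adjusted p 0.300) for H2O2/saline against control and −0.12 (edgeR adjusted p 0.913) for H2O2/SB431542 against H2O2/saline. With replicates 2 and 3 only, the first became 0.54 with an edgeR adjusted p of 0.0465, in a setting that called 13.1% of genes. Stat3 shares 72 exonic bases with Stat5a on the opposite strand. These are mRNA levels, and phosphorylation of STAT3 was not measured.

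Socs3, the feedback inhibitor, had 13.6, 14.5 and 15.9 CPM in H2O2/SB431542 bladders, 12.9, 51.1 and 40.2 CPM in H2O2/saline bladders and 8.44, 9.17 and 8.40 CPM in control bladders. Both H2O2 groups were above every control. H2O2/saline 1 was below all H2O2/SB431542 libraries, whereas H2O2/saline 2 and 3 were above them, so these groups overlapped through a single library. The group means were 14.7 ± 1.14, 34.8 ± 19.7 and 8.67 ± 0.431 CPM in H2O2/SB431542, H2O2/saline and control bladders (SD, n = 3 each). The log2 fold change of Socs3 for H2O2/saline against control was 2.0 (SE 0.384, edgeR unadjusted p 0.000226, adjusted p 0.0600). It was 1.87 (SE 0.335, adjusted p 0.0199) with the replicate block and 2.35 (SE 0.209, adjusted p 0.000232) without H2O2/saline 1, and DESeq2 gave 1.99 with an adjusted p of 3.50e-05. For H2O2/SB431542 against H2O2/saline it was −1.24 (SE 0.375, edgeR unadjusted p 0.00623, adjusted p 0.528). In this comparison edgeR called 0 of the 19314 genes with all libraries (1706 had an unadjusted p under 0.05), and DESeq2's Wald test called 39, Socs3 not among them. Without H2O2/saline 1 Socs3 was lower by 1.60 on the log2 scale in H2O2/SB431542 than in H2O2/saline bladders (SE 0.206, edgeR adjusted p 0.0117), where 1.02% of genes were called. That library was set apart on these same data and was the one of its group with low Socs3. Fits without it are therefore not independent support. H2O2/SB431542 against control gave 0.76 (SE 0.374, edgeR adjusted p 0.684). The comparisons share libraries, so the first 2 values are not independent of each other.

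**Figure D3:**
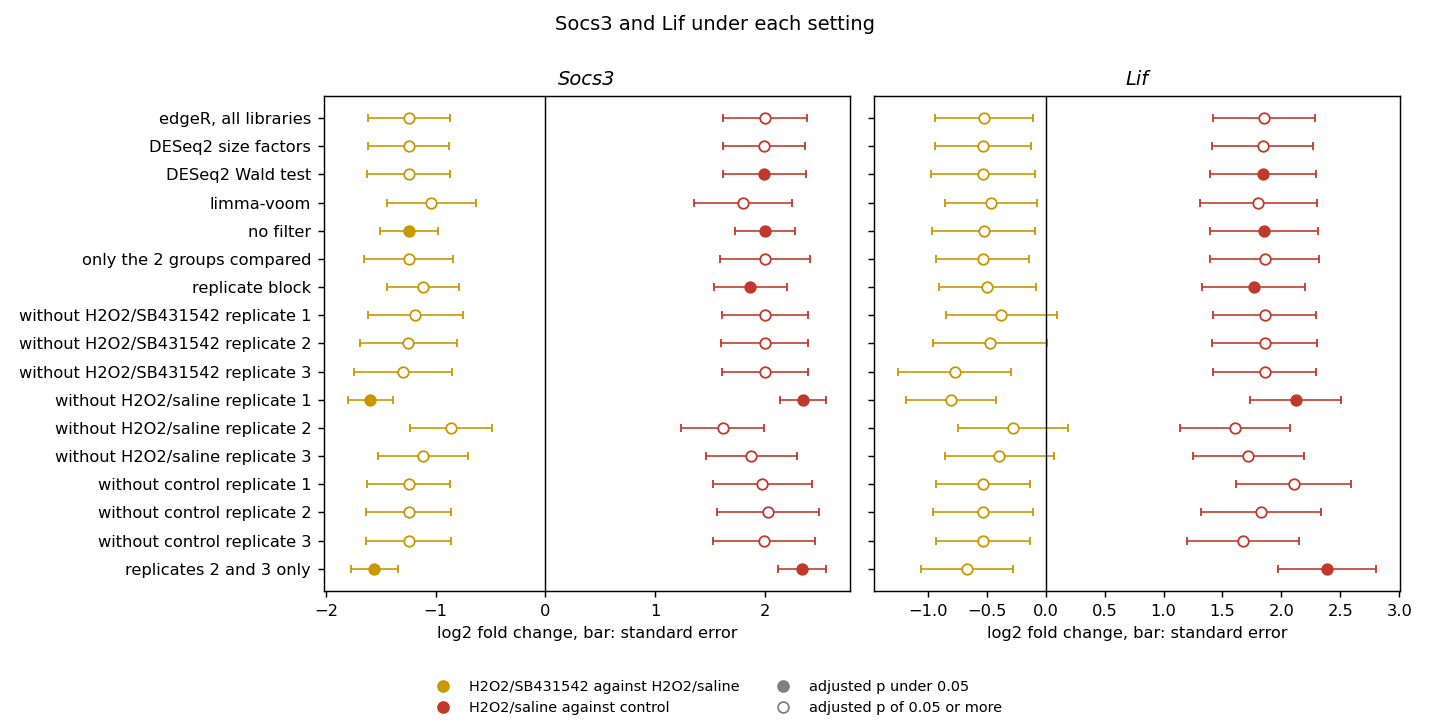
Log2 fold change and standard error of Socs3 and Lif for H2O2/SB431542 against H2O2/saline and for H2O2/saline against control under each setting. Filled points passed an adjusted p of 0.05. Socs3 lay between 1.62 and 2.35 against control and between −1.60 and −0.86 against H2O2/saline in every setting drawn.

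The rest of the pathway was described with lists of other ligands, other receptors, signal transducers and brakes, and genes known to respond to STAT3. By edgeR with no block and the filter on low counts, 0 genes of each list passed the adjusted threshold with all libraries in any comparison. Other settings called genes of these lists in H2O2/saline against control. The replicate block called 4 response genes (4.79% of all tested genes) and DESeq2's Wald test 10 (7.3% of all tested genes). Without the filter on low counts, response genes were called higher in H2O2/saline than in control, where 4.72% of genes were called. In that setting response genes were also called lower in H2O2/SB431542 than in H2O2/saline, where 0.82% of genes were called. With the filter, the edgeR unadjusted p for H2O2/saline against control was under 0.05 for 2 of 4 receptors (1 higher, 1 lower) and 0 of 12 transducers and brakes. It was under 0.05 for 15 of 23 response genes (14 higher, 1 lower). Among all tested genes 9.88% were higher and 7.96% lower at this threshold.

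Among the other ligands, Clcf1, a cytokine that acts through the ciliary neurotrophic factor receptor, had 4.85, 5.75 and 4.30 CPM in H2O2/SB431542 bladders, 4.10, 30.6 and 24.1 CPM in H2O2/saline bladders and 3.65, 3.38 and 5.03 CPM in control bladders. It was high in H2O2/saline 2 and 3 and within the control range in H2O2/saline 1. The log2 fold change of Clcf1 for H2O2/saline against control was 2.29 (SE 0.544, edgeR adjusted p 0.0704). With the replicate block it was 2.06 (adjusted p 0.0448), and without H2O2/saline 1 it was 2.72 (adjusted p 0.000236). For H2O2/SB431542 against H2O2/saline Clcf1 gave −1.98 (edgeR adjusted p 0.528), and without H2O2/saline 1 it gave −2.42 (edgeR adjusted p 0.0103). Ebi3, the subunit shared by interleukins 27 and 35, had 1.09, 2.28 and 1.17 CPM in H2O2/SB431542, 0.723, 2.74 and 0.991 CPM in H2O2/saline and 0.212, 1.11 and 0.155 CPM in control bladders, with overlapping groups. Ctf2 was low, at 0.555, 0.550 and 0.503 CPM in H2O2/SB431542, 0.289, 0.0517 and 0.297 CPM in H2O2/saline and 0.608, 0.185 and 0.309 CPM in control bladders. Its log2 fold change for H2O2/saline against control was −0.78 (edgeR adjusted p 0.723), a value uncertain at this level. All H2O2/SB431542 libraries were above all H2O2/saline libraries for Ctf2 (edgeR unadjusted p 0.168). Il27 and Il31 did not pass the filter, and Il31 was at 0 in all libraries.

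Among the other receptors, Il27ra, the interleukin 27 receptor, had 1.14, 1.10 and 2.10 CPM in H2O2/SB431542 bladders, 1.01, 5.72 and 3.86 CPM in H2O2/saline bladders and 0.661, 1.56 and 0.516 CPM in control bladders. Its log2 fold change for H2O2/saline against control was 1.95 (edgeR adjusted p 0.149), and 2.34 (edgeR adjusted p 0.0200) without H2O2/saline 1. Lifr had 4.95, 10.03 and 5.99 CPM, 4.02, 7.89 and 4.73 CPM, and 4.34, 8.37 and 11.1 CPM in H2O2/SB431542, H2O2/saline and control bladders. Lifr and Cntfr gave −0.52 and −0.09 for H2O2/saline against control, with edgeR adjusted p-values of 0.562 and 0.892. Il31ra was at 0.435, 0.175 and 0.229 CPM in H2O2/SB431542 bladders, 0, 0.0517 and 0 CPM in H2O2/saline bladders and 0.555, 0 and 0.567 CPM in control bladders. The H2O2/SB431542 libraries were above all H2O2/saline libraries (edgeR unadjusted p 0.0412, adjusted p 0.554), at levels too low for a fold change.

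The transducers and brakes were close to level. Their median log2 fold change was −0.01 for H2O2/saline against control, 0.06 for H2O2/SB431542 against H2O2/saline and 0.01 for H2O2/SB431542 against control. Jak1, a kinase bound to gp130, had 50.7, 53.6 and 58.3 CPM in H2O2/SB431542 bladders, 39.4, 55.5 and 48.3 CPM in H2O2/saline bladders and 56.2, 58.5 and 67.8 CPM in control bladders. The H2O2/saline libraries were all below the controls, with a log2 fold change of −0.35 (edgeR adjusted p 0.341). Jak2, Socs1 and Socs2, the last 2 being relatives of Socs3, gave −0.50, 0.33 and 0.70 for the same comparison, with edgeR adjusted p-values of 0.443, 0.699 and 0.570.

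The STAT3 response genes had their highest median levels in H2O2/saline 2 and 3, as Socs3 did. The median over the 23 tested genes of log2 CPM relative to the control mean was 0.31, 0.75 and 0.47 in the H2O2/SB431542 libraries, 0.41, 1.31 and 1.14 in the H2O2/saline libraries and 0.05, 0.10 and −0.11 in the control libraries. The same median over all tested genes lay between −0.02 and 0.03 in each library. H2O2/saline 1 was thus below 2 of the 3 H2O2/SB431542 libraries, and H2O2/saline 2 and 3 were above all of them. In H2O2/saline against control 19 of 23 had a positive and 4 a negative fold change, with a median of 0.85. Groups did not overlap for 9 higher genes and 1 lower gene, where 9.7% of all tested genes were higher and 8.96% lower without overlap. In H2O2/SB431542 against H2O2/saline 6 were positive and 17 negative, with a median of −0.41, and in H2O2/SB431542 against control 18 were positive and 5 negative, with a median of 0.56. Many of these genes also respond to other inflammatory signals, and the list was chosen with earlier results of these data known.

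**Figure D4:**
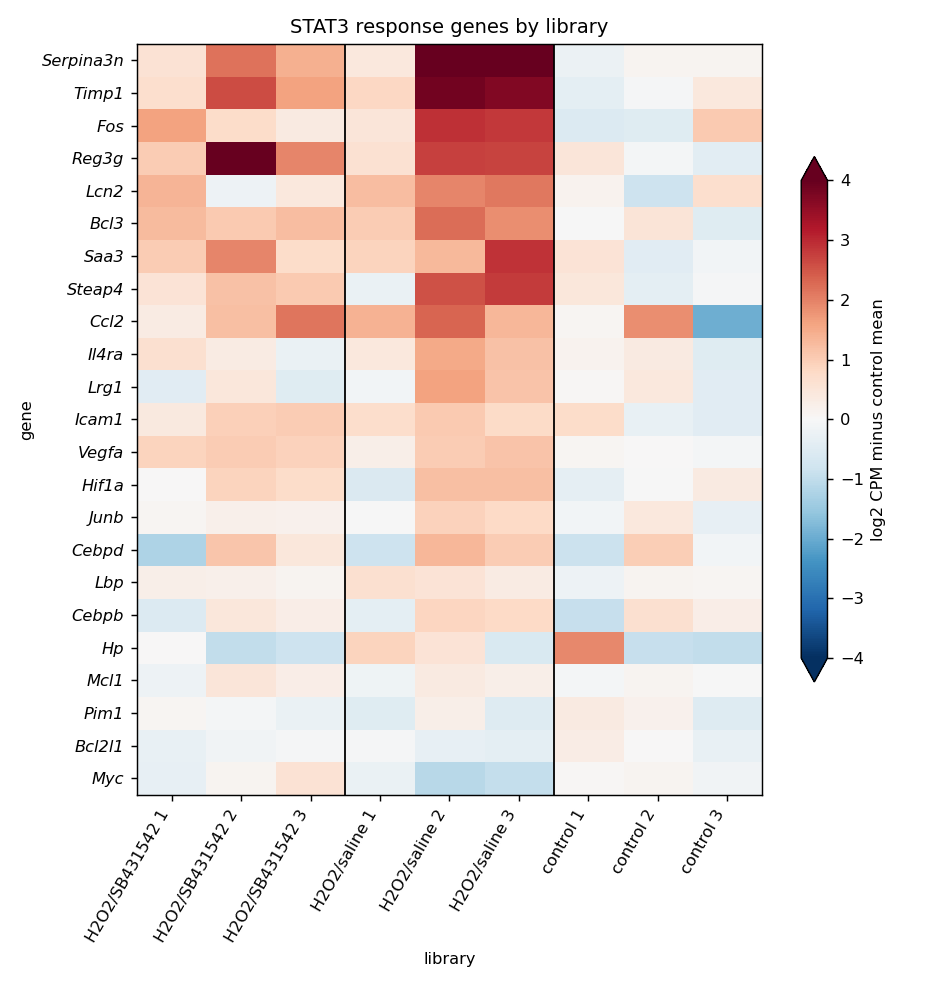
Log2 CPM minus the control mean (colour) of the 23 tested STAT3 response genes (rows) in 9 libraries (columns), with colours saturated beyond 4 in either direction. The columns of H2O2/saline 2 and 3 have medians of 1.31 and 1.14, against 0.41 in H2O2/saline 1.

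The largest fold changes of this list were those of Serpina3n and Timp1, an acute-phase protease inhibitor and an inhibitor of matrix metalloproteinases. Serpina3n had 62.5, 191 and 114 CPM in H2O2/SB431542 bladders, 56.8, 912 and 833 CPM in H2O2/saline bladders and 35.9, 45.4 and 45.7 CPM in control bladders. Timp1 had 8.57, 33 and 16.7 CPM, 9.71, 79.9 and 71.4 CPM, and 4.15, 5.28 and 7.24 CPM in the same groups. Every library of both H2O2 groups was above every control for both genes. The log2 fold change for H2O2/saline against control was 3.83 for Serpina3n (SE 0.772, edgeR adjusted p 0.0600) and 3.27 for Timp1 (SE 0.680, edgeR adjusted p 0.0600). With the replicate block the adjusted p was 0.0211 for Serpina3n and 0.0135 for Timp1, and without H2O2/saline 1 it was 0.000232 and 0.000467. For H2O2/SB431542 against H2O2/saline Serpina3n gave −2.29 (edgeR adjusted p 0.528) and Timp1 −1.47 (edgeR adjusted p 0.550). Without H2O2/saline 1 these were −2.79 (edgeR adjusted p 0.0105) and −1.92 (edgeR adjusted p 0.0479).

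Fos, an immediate early gene and part of AP-1, had 50.9, 28.1 and 21.7 CPM in H2O2/SB431542 bladders, 23.4, 125.9 and 118 CPM in H2O2/saline bladders and 11.3, 11.8 and 34.8 CPM in control bladders, so that H2O2/saline 1 was within the control range. Its log2 fold change for H2O2/saline against control was 2.21 (edgeR adjusted p 0.0963), and 2.61 (edgeR adjusted p 0.00377) without H2O2/saline 1. Reg3g, an antimicrobial lectin, had 1.62, 18.5 and 3.13 CPM in H2O2/SB431542 bladders, 1.21, 5.49 and 5.35 CPM in H2O2/saline bladders and 1.11, 0.740 and 0.567 CPM in control bladders. It was the highest in an H2O2/SB431542 library, and its log2 fold change for H2O2/SB431542 against control was 3.26 (edgeR adjusted p 0.368). Without H2O2/saline 1, 12 response genes were higher and 1 lower than control past the adjusted threshold. This setting called 5.52% of all tested genes as higher and 756 of the 19314 as lower. The lower response gene was Myc, a growth-promoting transcription factor named here after its values were seen. It had 15.8, 21.5 and 29.8 CPM in H2O2/SB431542 bladders, 16.8, 9.26 and 10.3 CPM in H2O2/saline bladders and 20.5, 21.3 and 18.1 CPM in control bladders.

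The summed CPM of the neutrophil, macrophage and mast cell markers was also the highest in H2O2/saline 2 and 3 among the 9 libraries. The neutrophil sums there were 17.5 and 15.7, the macrophage and monocyte sums 691 and 640 and the mast cell sums 50.2 and 39.6 CPM. In H2O2/saline 1 they were 2.69, 377 and 18.1 CPM. Tpsb2 alone made up 33.3 and 24.5 CPM of the mast cell sums in H2O2/saline 2 and 3. Some markers did not follow the sums. Kit had 5.69, 3.57 and 3.49 CPM in H2O2/saline 1 to 3. Mrc1 had 8.43 and 8.89 CPM in H2O2/saline 2 and 3, against 9.91 and 10.3 in control 2 and 3. The T cell markers summed to 6.65, 5.90 and 10.3 CPM in H2O2/saline 1 to 3. The 5 endothelium markers summed to 113 and 97.2 CPM in H2O2/saline 2 and 3, against 50.2 CPM in H2O2/saline 1. The part of these cell types in the values of Socs3, Clcf1 and the response genes was not tested.

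The genes whose profile over the 9 libraries was most like that of a member were sought by the root mean square difference of centred log2 CPM for the 3 tested members with the widest spread. For Socs3 (SD 0.939) they were Procr at 0.165, Fen1 at 0.184 and Igf1 at 0.197 on the log2 scale. Procr had 11.4, 16.7 and 12.2 CPM in H2O2/SB431542, 11.4, 40.4 and 35.7 CPM in H2O2/saline and 7.38, 7.13 and 6.91 CPM in control bladders. For Il11 (SD 1.2) the nearest were Meox1, Egr1 and Fos at 0.508, 0.530 and 0.538. For Osm (SD 1.66) they were Ebi3, Gpr55 and Gdpd2 at 0.634, 0.663 and 0.692.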

How the data were processed

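Bladder RNA of 9 libraries in 3 groups was selected for poly-A and sequenced as paired reads of 150 bp by the authors, who used strand NGS and the GRCm39 build. How strand NGS aligned and counted the reads, and whether by strand, is not stated in those sources. The deposited raw columns hold the authors' expected counts, of which 32.0% of the nonzero values are exactly whole, and these were rounded to whole numbers. The deposited normalized columns are on a log2 scale and were not used for any result.

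All libraries entered 1 edgeR 4.0.16 quasi-likelihood fit (R 4.3.3, TMM factors of 0.910 to 1.07, filterByExpr, 1 mean per group), and the SE is the log2 fold change divided by the square root of F. CPM values use the TMM factors, with a prior count of 2 on the log2 scale. A gene was called at an adjusted p of 0.05. With 3 against 3 libraries the smallest exact two-sided p is 0.1, so no permutation test was made. Alternatives were DESeq2 1.42.0 (size factors or Wald test), limma 3.58.1 voom, no filter, only the 2 groups compared, the replicate number as a block, leaving out each library, and replicates 2 and 3 only. The fitting code was tested on simulated data.

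Neither labels nor methods say that replicate numbers pair libraries. After removing group means, same-numbered libraries correlated at 0.312, 0.119 and 0.112 for H2O2/saline with control, at 0.514, 0.201 and 0.129 for H2O2/SB431542 with H2O2/saline, and at 0.321, 0.0399 and 0.0770 for H2O2/SB431542 with control. Deviations within a group cancel, so a link among replicate 1 libraries alone could give this. Between replicates 2 and 3, different-numbered libraries correlated at 0.0528 and 0.0801, 0.183 and 0.121, and 0.129 and 0.0999 in the same order. The last 2 values were above the same-numbered values of replicates 2 and 3 for H2O2/SB431542 with control. A pairing of replicates 2 and 3 by number was thus not shown. The blocked value stands beside results of the first 2 comparisons where it changes a call.

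All members are named. Other pathway genes are named where they are among the 4 largest fold changes of their list for H2O2/saline against control, and 1 gene of these is not reported here. The members and lists were chosen with earlier results of these data known.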

Additional observations from a re-analysis of the deposited data

How the results depend on the processing

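Members kept 0 calls with DESeq2 size factors, limma-voom and only the 2 groups compared. Genes called were 10, 0 and 3 for H2O2/saline against control, H2O2/SB431542 against H2O2/saline and H2O2/SB431542 against control in the analysis as reported. They were 1409, 39 and 197 with DESeq2's Wald test, 1579, 274 and 439 of 33427 genes without a filter, 4, 1 and 23 with only the 2 groups compared, 925, 0 and 35 with the replicate block, and 2521, 234 and 449 with replicates 2 and 3 only. Members called were 2, 0 and 0 with DESeq2's Wald test and with the block, 2, 1 and 0 without a filter, and 3, 1 and 0 with replicates 2 and 3. They were Socs3 and Lif, with Stat3 as the third, and Socs3 alone in H2O2/SB431542 against H2O2/saline. Leaving out 1 library gave 0 to 1822, 0 to 197 and 0 to 83 genes and 0 to 2, 0 to 1 and 0 members. The upper ends are without H2O2/saline 1, and without control 1 the first comparison had 252 genes. Without control 2 or control 3 it had 0. Directions turned for 5 log2 differences that were not called. Leaving out 1 library, Il6ra for H2O2/SB431542 against H2O2/saline ran from −0.15 to 0.16, above 0 without H2O2/SB431542 1 (0.05) or H2O2/saline 3, and Stat3 in that pair ran from −0.29 to 0.041, above 0 without H2O2/saline 2. Il6st for H2O2/SB431542 against control ran from −0.18 (without control 1) to 0.18, with −0.10 without H2O2/SB431542 3. It was −0.046 with replicates 2 and 3 only, where Il11 was −0.12. Il11ra1 for H2O2/saline against control ran from −0.24 to 0.024, above 0 without H2O2/saline 3. The cause was not tested. Depth limits Il6, Osm and Il11, with at most 52 counts in a library.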
